A study of Homo sapiens with 6 samples.

Results

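The genes described here are the integrin subunits, laminin chains and collagen chains that carry an m6A peak in MHCC97H cells. A gene was a member when its symbol in either deposited peak list was ITGA followed by a number, ITGAV, ITGB followed by a number, LAMA, LAMB or LAMC with a number, or a collagen chain symbol such as COL4A1. The pattern found 44 of the 16810 genes with a peak: 7 integrin alpha subunits, 5 integrin beta subunits, 9 laminin chains and 23 collagen chains. Integrin alpha subunits named by a letter other than V are outside it. RefSeq holds 76 genes whose symbols fit the pattern, and 32 of them had no peak in either list.

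MHCC97H is a human hepatocellular carcinoma cell line, and both groups share that single line. One group received FB23-2, which inhibits the m6A demethylase FTO, at 2 µM for 48 h, and the other its DMSO vehicle, with 3 samples each. Poly(A) RNA was fragmented, fragments with N6-methyladenosine (m6A) were pulled down with an antibody, and pulldown and input were sequenced (MeRIP-seq). The study looked for RNAs affected by FB23-2 through FTO. The labels do not say whether the 3 samples of a treatment were separate cultures.

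Each treatment has 1 deposited peak list whose columns name no sample, so it was taken as pooled. The spread between samples is therefore unknown, no contrast of the treatments was tested, and none has a p-value. The FB23-2 list held 41838 peaks in 16003 genes and the DMSO list 42813 peaks in 16158 genes. Read depth is unknown. The log2 fold of a peak is the authors' own value, read here as pulldown over input, which the lists do not state. It ranks peaks within a list and is not an RNA level. RNA levels were not analysed here, so methylation that is absent and RNA too scarce for a peak call cannot be told apart.

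Laminins and collagens are secreted proteins of the matrix around cells, and integrins are the receptors that hold on to that matrix. An integrin is a pair of one alpha and one beta subunit, a laminin is a trimer of an alpha, a beta and a gamma chain, and a collagen is a triple helix of alpha chains. Network collagen IV and laminins build the basement membrane, while fibrillar collagens build the interstitial fibres that accumulate in a scarred liver. m6A is written on nascent RNA by a METTL3 and METTL14 complex, mostly at a short motif that contains GGAC or a near variant, and is densest near stop codons and in 3' UTRs. FTO can remove it.

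Most m6A peaks of these genes were found under both treatments. Shared peaks are those with a same-strand peak in the opposite list whose overlap covers 50% or more of the shorter of both, and the rest are list-only. Of 130 peaks on 43 members in the FB23-2 list, 27 (20.8%) were FB23-2-only, where 17.3% of all FB23-2 peaks were list-only. Of 147 peaks on 40 members in the DMSO list, 44 (29.9%) were DMSO-only, where 20.1% of all DMSO peaks were. The shared share was 79.2% in the FB23-2 list (exact binomial 95% interval 71.2 to 85.8) and 70.1% in the DMSO list (62.0 to 77.3). These intervals cover the counting of peaks only and overlap each other. The gap between the lists depended on the peak threshold: at an adjusted p under 0.001 the shared share was 80% in the FB23-2 list and 78.2% in the DMSO list, and at a fold of at least 4 it was 71.9% and 75.9%. At an adjusted p under 0.001, 120 of the 130 FB23-2 and 124 of the 147 DMSO member peaks remained. Several list-only peaks named below are among those that did not remain. Of the list-only peaks, 25 of the 27 FB23-2-only and 41 of the 44 DMSO-only peaks had no base in common with the other list on their strand, as did 6677 of all 7227 FB23-2-only and 8092 of all 8607 DMSO-only peaks.

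By family, collagens had 17 FB23-2-only peaks of 74 and 28 DMSO-only peaks of 87. Integrin alpha subunits had 4 of 20 FB23-2-only and 8 of 23 DMSO-only. Laminins had 4 of 22 FB23-2-only and 5 of 24 DMSO-only, and integrin beta subunits 2 of 14 and 3 of 13. Each family had more DMSO-only than FB23-2-only peaks, by 1 peak for the laminins and for the beta subunits. The whole lists leaned the same way, with 7227 of 41838 FB23-2 peaks (17.3%) and 8607 of 42813 DMSO peaks (20.1%) list-only. The DMSO-only share of laminin peaks, 20.8%, was near that of all DMSO peaks.

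**Figure D1:**
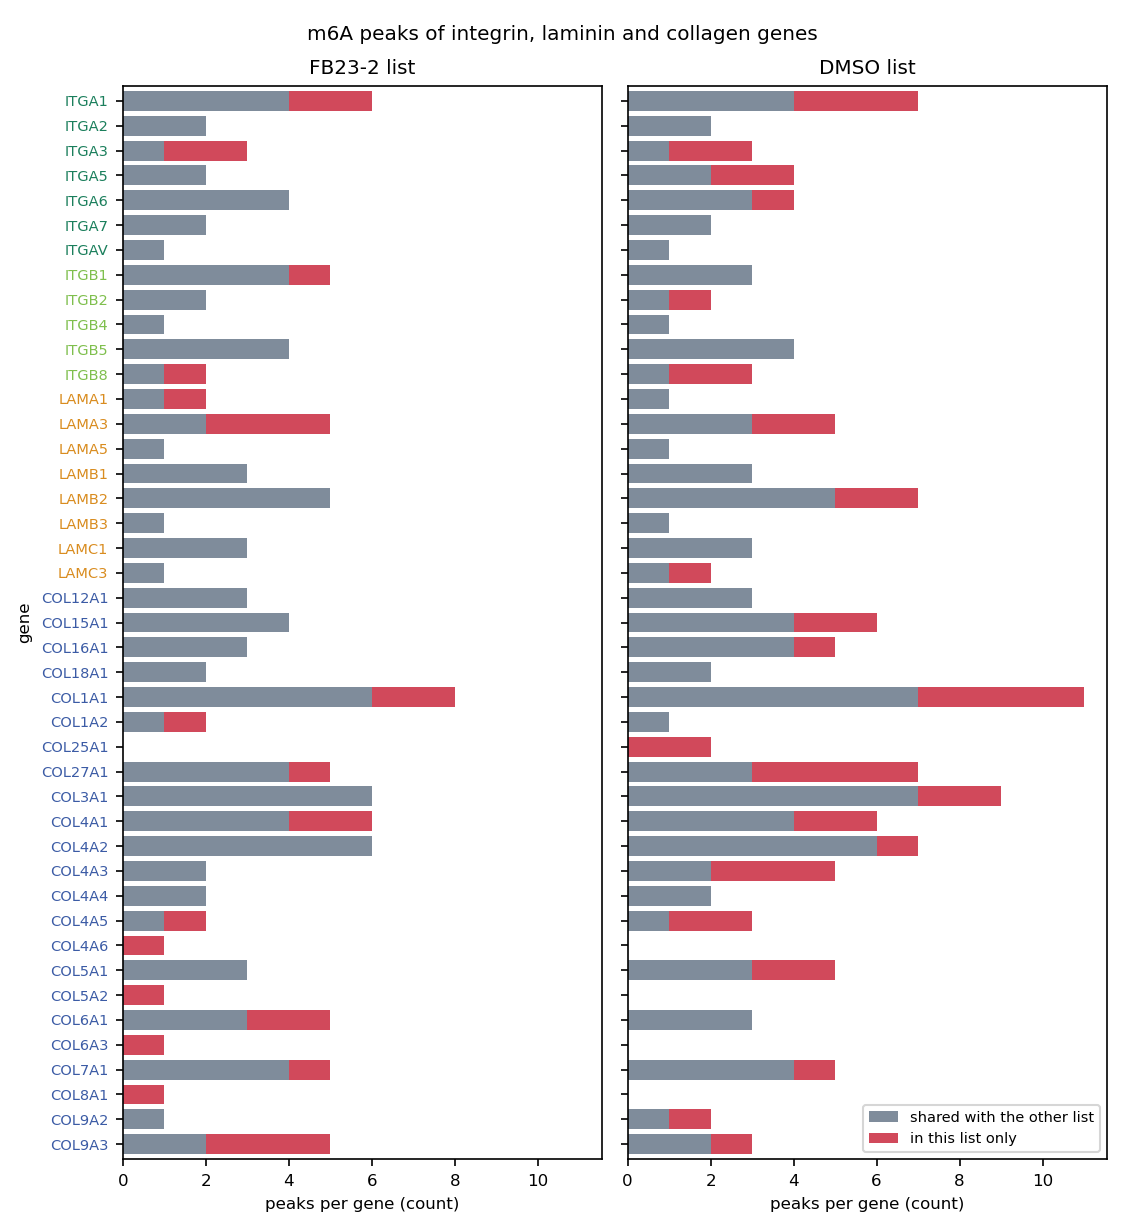
Shared and list-only m6A peaks of 43 of the member genes, as a number of peaks per gene, in the FB23-2 list (left) and the DMSO list (right); gene names are coloured by family. Red bars add up to 27 peaks in the FB23-2 list and 44 in the DMSO list, and COL4A6, COL5A2, COL6A3, COL8A1 and COL25A1 have bars on one side only.

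Among the integrin alpha subunits, the peaks with the highest log2 folds, on ITGA5, ITGA3 and ITGA6, lay in the 3' UTR and differed little between the lists. ITGA5, the alpha subunit of the fibronectin receptor, had its main peak at chr12:54395261-54398763 with a log2 fold of 4.12 in the FB23-2 list, and at chr12:54395261-54398788 with 4.20 in the DMSO list. A shared peak beside it had 1.11 in the FB23-2 list, where it is classed as coding exon, and 0.95 in the DMSO list, where it is classed as intron. ITGA5 also had 2 DMSO-only intron peaks, at chr12:54400260-54400384 (1.19) and chr12:54400435-54400559 (1.03).

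ITGA3, which pairs with ITGB1 to bind laminin, had a 3' UTR peak of 3.60 at chr17:50088337-50090479 in the FB23-2 list and of 3.72 at chr17:50087644-50090479 in the DMSO list. Its list-only peaks differed in place. The FB23-2-only ones were a 5' UTR peak at chr17:50056094-50056243 (1.55), 126 bases from the annotated 5' end, and an intron peak at chr17:50071848-50071972 (0.83). The DMSO-only ones were intron peaks at chr17:50086419-50086518 (1.02) and chr17:50086819-50087193 (0.73), both close to the shared 3' UTR peak.

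ITGA6, the laminin receptor subunit that pairs with ITGB4 or ITGB1, had its main 3' UTR peak at chr2:172491439-172505174 (2.90) in the FB23-2 list and chr2:172491489-172505099 (2.67) in the DMSO list. A single DMSO peak at chr2:172505550-172506449 (1.23) matched a pair of FB23-2 peaks of 0.83 and 1.36. The same sequence stretch was thus cut into different numbers of peaks in the lists. A DMSO-only intron peak lay at chr2:172489710-172489834 (1.03).

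ITGA1, a collagen receptor subunit, had the most list-only peaks of the alpha subunits. FB23-2-only were 2 weak 3' UTR peaks, at chr5:52953495-52953594 (0.78) and chr5:52954595-52954819 (0.66). DMSO-only were intron peaks at chr5:52903204-52903428 (0.80) and chr5:52904404-52904678 (0.95), and a peak classed as 3' UTR at chr5:52915592-52920461 (0.76). Every one of these 5 log2 folds was under 1. Its 4 shared pairs had log2 folds from 0.89 to 1.5 in the FB23-2 list and from 0.58 to 1.45 in the DMSO list. ITGA2 (collagen receptor), ITGA7 (laminin receptor) and ITGAV (receptor for RGD motifs in vitronectin and fibronectin) had shared peaks only. The strongest ITGA2 peak, in the 3' UTR, had 1.67 in the FB23-2 list and 1.55 in the DMSO list, and that of ITGA7 had 2.04 and 2.35. The ITGAV peak in the 3' UTR had 1.83 in the FB23-2 list, at chr2:186680657-186680901, and 1.76 in the DMSO list, at chr2:186680682-186680901.

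Over the alpha subunits, introns held 1 of 20 FB23-2 peaks (5.0%, interval 0.127 to 24.9) and 8 of 23 DMSO peaks (34.8%, interval 16.4 to 57.3), where 4.64% of all FB23-2 and 4.76% of all DMSO peaks lay in introns. The intervals overlap. These DMSO peaks were 2 each of ITGA1 and ITGA3, 3 of ITGA5 and 1 of ITGA6, and none had a log2 fold above 1.19. Both ITGA1 peaks, 1 of the ITGA3 peaks and 2 of the ITGA5 peaks miss the stricter threshold of an adjusted p under 0.001. The remaining ITGA5 peak is shared, and the FB23-2 list classes its partner as coding exon.

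Of the integrin peaks found in one list, the one with the highest log2 fold was on a beta subunit. ITGB1, the partner of most alpha subunits, had an FB23-2-only peak classed as 5' UTR at chr10:32958606-32960383 with a log2 fold of 3.60. It lies 45409 bases inside the 5' end of the gene as listed, and no DMSO peak shares a base with it. The 3' UTR peaks of ITGB1 were shared, the stronger with 1.78 in the FB23-2 list (chr10:32900318-32900617) and 1.68 in the DMSO list (chr10:32900318-32900642). At the downstream 5' UTR, FB23-2 peaks of 0.93 and 0.80 matched a single DMSO peak of 0.67 at chr10:32932604-32936080.

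ITGB2, the beta subunit of leukocyte integrins, had its 5' UTR peak at chr21:44928781-44931989 with a log2 fold of 3.77 in the FB23-2 list. The DMSO peak inside that span, chr21:44929653-44930102, had 1.49 and is classed as intron. This was the widest positive gap of any member pair, and the FB23-2 list holds a further peak of 1.89 over the same stretch. A DMSO-only 3' UTR peak lay at chr21:44886003-44886152 (1.90). The antisense gene ITGB2-AS1 has a peak over the same 5' stretch on the opposite strand, and whether the libraries kept strand is not given in the sources used here, so the 2 genes cannot be told apart there.

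ITGB5, an ITGAV partner, had shared peaks only, 4 per list. Its 5' UTR peak had identical borders, chr3:124887270-124887728, with 2.21 in the FB23-2 list and 2.10 in the DMSO list. Its main 3' UTR peak had 1.85 in both lists, at chr3:124762773-124763572 in the FB23-2 list. ITGB4, the hemidesmosome partner of ITGA6, had 1 peak in each list, at the 3' end, with 1.86 in the FB23-2 list (chr17:75757558-75757818) and 1.33 in the DMSO list (chr17:75757633-75757818). ITGB8, another ITGAV partner, had a shared 3' UTR peak of 2.52 at chr7:20399043-20410823 in the FB23-2 list and of 2.42 at chr7:20401751-20411073 in the DMSO list. Its other 3' UTR peaks were list-only, with an FB23-2-only peak at chr7:20412924-20413073 (0.93) and DMSO-only peaks at chr7:20411374-20411523 (1.46) and chr7:20415524-20415748 (1.97).

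The 3' UTR peaks of laminin chains were shared, except for 1 DMSO-only peak of LAMC3. LAMC1, the gamma chain of most laminins, had a main 3' UTR peak of 2.45 at chr1:183136536-183143821 in the FB23-2 list and of 2.19 at chr1:183136411-183143796 in the DMSO list. Its 5' UTR peak had 1.58 in the FB23-2 list and 1.78 in the DMSO list, and the peak at its very 3' end had 0.97 and 1.44. So the order of the lists differed between the peaks of this one gene. LAMB1, a beta chain that joins LAMC1, had a 3' UTR peak of 1.38 in both lists, at chr7:107923799-107926183 in the FB23-2 list. LAMA5, the alpha chain of the widespread basement-membrane laminin with LAMB1 and LAMC1, had a single 3' UTR peak of 1.38 in the FB23-2 list (chr20:62308889-62309363) and 1.49 in the DMSO list (chr20:62308355-62309363).

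LAMA3 and LAMB3 are an alpha and a beta chain of epithelial attachment. LAMB3 had a single 3' UTR peak of 1.84 in the FB23-2 list (chr1:209614870-209616532) and 1.89 in the DMSO list (chr1:209614870-209617492). LAMA3 carried most of the list-only peaks of the family, all in coding exons. FB23-2-only were chr18:23905600-23907624 (1.06), chr18:23907650-23907863 (0.95) and chr18:23928214-23931143 (1.45), and DMSO-only were chr18:23898813-23899042 (1.10) and chr18:23899290-23899514 (0.81). The DMSO-only pair lies just before a shared peak and the first FB23-2-only pair lies after it.

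LAMC3, a gamma chain, had a 3' UTR peak of 2.53 at chr9:131087533-131092246 in the FB23-2 list and of 2.69 at chr9:131087508-131092546 in the DMSO list, and a DMSO-only 3' UTR peak at chr9:131092847-131093246 (2.03). LAMA1, an alpha chain, had a 3' UTR peak of 1.41 in the FB23-2 list and 1.86 in the DMSO list, and an FB23-2-only exon peak of 1.08. LAMB2, a beta chain, had 5 shared FB23-2 peaks and 2 DMSO-only exon peaks (1.09 and 0.83).

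Of the members, 5 collagen chains had peaks in one list and none in the other. FB23-2-only chains were COL4A6, COL5A2, COL6A3 and COL8A1, which is 4 of 44 members where 3.88% of all genes were in the FB23-2 list alone. The DMSO-only chain was COL25A1, where 4.8% of all genes were in the DMSO list alone. COL4A6, a basement-membrane chain, had 1 intron peak at chrX:108268614-108268713 (4.30). COL5A2, a chain of fibril-nucleating collagen V, had 1 3' UTR peak at chr2:189033798-189033947 (1.41). COL6A3, a chain of beaded-filament collagen VI, had 1 coding-exon peak at chr2:237340623-237340922 (2.82), and the short-chain network collagen COL8A1 had 1 at chr3:99794494-99794818 (1.94). COL25A1, a transmembrane collagen, had 2 3' UTR peaks at chr4:108812850-108813224 (3.66) and chr4:108813275-108813649 (4.20). None of these 6 peaks overlapped a peak of the other list. COL5A2 was lost at an adjusted p under 0.001, and COL5A2 and COL8A1 fell below a fold of 4.

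COL4A1 and COL4A2 encode the chains of the common basement-membrane collagen IV and lie head to head, with listed spans that overlap by 1346 bases. COL4A1 had 4 shared FB23-2 peaks, the strongest in the 3' UTR at chr13:110148963-110149337 with 1.66 in the FB23-2 list and 1.51 in the DMSO list. FB23-2-only were chr13:110149463-110149562 (0.87) and chr13:110191476-110191600 (1.27), both classed as 3' UTR. DMSO-only were chr13:110235762-110235861 (1.09), classed as 3' UTR, and chr13:110306971-110307070 (1.20), a 5' UTR peak 87 bases from the gene's 5' end. That 5' UTR peak lies in the stretch that COL4A1 shares with COL4A2.

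COL4A2 had 6 shared peaks in the FB23-2 list. The 3' UTR peak with the highest fold lay at chr13:110459076-110459650, with 2.62 in the FB23-2 list and 2.10 in the DMSO list. Its peak at the gene's 3' end had 1.83 in the FB23-2 list and 1.93 in the DMSO list. The single DMSO-only peak, chr13:110429667-110429841, had 0.83. One COL4A2 peak spans 62693 bases in the FB23-2 list and 62618 bases in the DMSO list, introns included, with 1.08 and 1.10. It is classed as 3' UTR although it ends 88346 bases before the gene's 3' end in the FB23-2 list.

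COL4A3, COL4A4 and COL4A5, further collagen IV chains, also had shared 3' UTR peaks. COL4A3 had 2.39 in the FB23-2 list and 2.57 in the DMSO list at its main 3' UTR peak, and 3 DMSO-only peaks, at chr2:227305002-227307752 (0.82), chr2:227314228-227314402 (0.99) and chr2:227314428-227314652 (1.52). Its head-to-head neighbour COL4A4, whose 5' end lies 170 bases away, had shared peaks only, the stronger with 3.03 in the FB23-2 list and 2.59 in the DMSO list. COL4A5 had an FB23-2-only 5' UTR peak at chrX:108439863-108440371 (1.23), which starts 25 bases from the gene's 5' end and faces COL4A6 across 340 bases. The DMSO-only peaks of COL4A5 were chrX:108582545-108582669 (0.90) and a peak at the 3' end, chrX:108697300-108697545 (1.28).

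Fibrillar collagens had 5 FB23-2-only peaks of 25 and 12 DMSO-only peaks of 33, where 17.3% of all FB23-2 and 20.1% of all DMSO peaks were list-only. COL1A1 and COL27A1 gave 4 each of these DMSO-only peaks. COL1A1, the main chain of collagen I, had 8 FB23-2 peaks along its coding sequence and 3' UTR. FB23-2-only were exon peaks at chr17:50186380-50186911 (1.25) and chr17:50196631-50197758 (1.48). DMSO-only were exon peaks at chr17:50186887-50187641 (1.30), chr17:50190910-50191814 (1.66), chr17:50192383-50193024 (0.81) and chr17:50193838-50194062 (0.94). The last 2 of these miss the stricter threshold of an adjusted p under 0.001. The first of each set overlap each other by less than the threshold. The shared exon pair at chr17:50188517-50190064 in the FB23-2 list and chr17:50188517-50188977 in the DMSO list had 2.04 and 1.12, and the pair at chr17:50194378-50194721 and chr17:50194378-50195611 had 2.33 and 1.34. In both, the FB23-2 fold was the higher, but the peaks were cut differently in the lists. The FB23-2 peak of 2.04 also covers DMSO peaks of 1.09, 1.24 and 1.29. The DMSO peak of 1.34 also matched an FB23-2 peak of 1.64. At the 3' UTR, FB23-2 peaks of 2.35 and 2.26 matched 1 DMSO peak of 2.57.

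COL1A2, the other collagen I chain, showed the widest gap of any member. Its exon peak had a log2 fold of 4.07 at chr7:94427719-94429285 in the FB23-2 list and of 7.73 at chr7:94427794-94428350 in the DMSO list, the highest fold of any member peak. An FB23-2-only 3' UTR peak lay at chr7:94430411-94430685 (3.31). The DMSO peak lies inside the FB23-2 peak and spans 557 bases, against 1567 bases for the FB23-2 peak. COL3A1, the collagen III chain, had 6 shared FB23-2 peaks with log2 folds from 1.22 to 2.01. Its shared DMSO peaks had log2 folds from 0.88 to 3.11. The DMSO peak of 3.11, chr2:189012402-189012746, lies inside the FB23-2 3' UTR peak of 1.72, which also matched a DMSO peak of 2.19. DMSO-only were exon peaks at chr2:188974498-188985113 (1.67) and chr2:189007577-189008049 (0.95). The first of these overlaps a shared FB23-2 peak, but by less than the threshold.

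COL27A1, a fibrillar chain of cartilage, had 1 FB23-2-only peak, chr9:114275677-114284765 (1.35), and 4 DMSO-only peaks, chr9:114231114-114237012 (1.25), chr9:114250651-114252924 (1.01), chr9:114282310-114288707 (1.29) and chr9:114290867-114292201 (1.39). The FB23-2-only peak and the third DMSO-only peak overlap, but by less than the threshold. COL5A1, a collagen V chain, had a 3' UTR peak of 2.16 at chr9:134843659-134844843 in the FB23-2 list and of 2.20 at chr9:134843684-134844843 in the DMSO list. Its 5' UTR peak had 1.87 in the FB23-2 list and 1.72 in the DMSO list, and its DMSO-only exon peaks had 1.14 (chr9:134789172-134795279) and 1.34 (chr9:134806294-134809082).

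Of the remaining collagens, COL7A1, which forms the anchoring fibrils under epithelia, had a 3' UTR peak of 2.68 at chr3:48564073-48564397 in the FB23-2 list and of 2.42 at chr3:48564073-48564422 in the DMSO list. Its single list-only peaks lay in exons, chr3:48571106-48571230 (1.11) in the FB23-2 list and chr3:48571931-48572161 (1.41) in the DMSO list. COL9A3, a fibril-associated collagen, had a 3' UTR peak of 2.17 at chr20:62838739-62841159 in the FB23-2 list and of 2.31 at chr20:62837021-62841159 in the DMSO list. Just before it lay 3 FB23-2-only exon peaks, chr20:62832853-62836058 (1.29), chr20:62836284-62836383 (1.09) and chr20:62836409-62836633 (1.10), while the DMSO-only peak was in an intron, chr20:62831973-62832122 (0.80).

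COL6A1, the partner of COL6A3 in collagen VI, had 3 shared FB23-2 peaks and FB23-2-only peaks at chr21:46000885-46001011 (1.59) and chr21:46001037-46001306 (1.60), which nearly abut. COL15A1, a multiplexin of vascular basement membranes, had 4 shared FB23-2 peaks and DMSO-only 3' UTR peaks at chr9:99070040-99070139 (0.90) and chr9:99070290-99070414 (0.63). COL18A1, the multiplexin that releases endostatin, had shared peaks only, the stronger at chr21:45512357-45513720 in both lists with 2.84 in the FB23-2 list and 2.87 in the DMSO list. COL12A1, COL16A1 and COL9A2 are fibril-associated collagens. COL12A1 had shared peaks only, the strongest in the 5' UTR with 1.75 in the FB23-2 list and 1.87 in the DMSO list. COL16A1 had a shared coding-exon peak of 2.01 in the FB23-2 list and 2.17 in the DMSO list, and a DMSO-only intron peak (1.17). COL9A2 had a shared 3' UTR peak of 1.53 in the FB23-2 list and 2.13 in the DMSO list, and a DMSO-only exon peak (1.13).

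**Figure D2:**
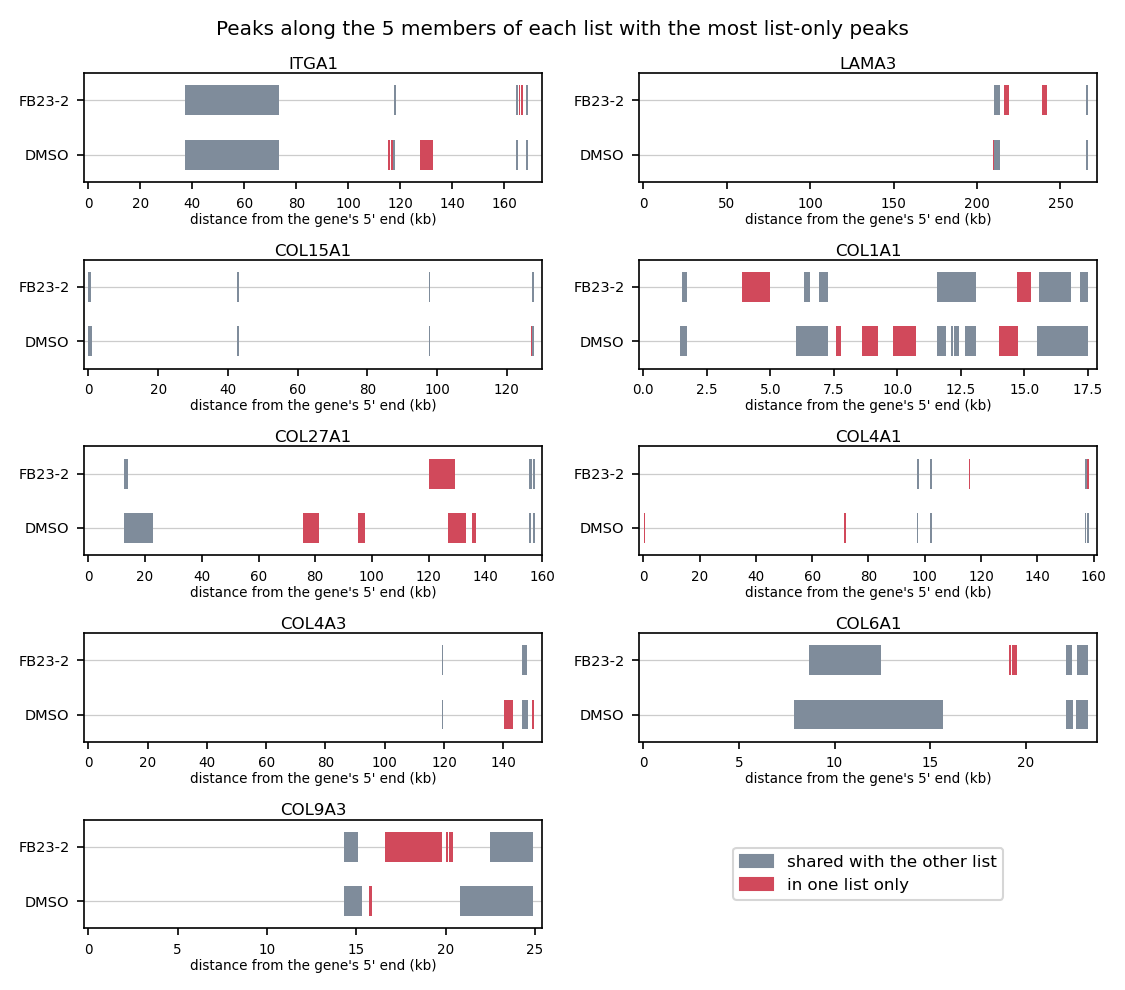
Peaks along the 5 members of each list with the most list-only peaks there (ties by symbol, 9 genes in all), by distance from the gene's listed 5' end in kb, with the FB23-2 list above the DMSO list. Red marks list-only and grey shared peaks, and narrow peaks are widened so that they can be seen. COL1A1 has 2 FB23-2-only and 4 DMSO-only peaks, and COL9A3 has 3 FB23-2-only peaks and 1 DMSO-only peak.

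The fold of a shared peak was much the same in both lists. Each of the 103 shared FB23-2 peaks of the members was set against the DMSO peak of longest overlap. The median FB23-2 minus DMSO difference was 0.00 on the log2 scale (95% interval of the median -0.05 to 0.09), beside 0.01 over all 34611 pairs. The FB23-2 fold was the higher in 53 of 103 member pairs, where it was in 51.1% of all pairs. Members thus sat at the background on both measures. The folds come from lists called separately, pairs of 1 gene are not independent, and a difference between them shows no change by itself.

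The families lay to either side of 0. Of the integrin beta pairs, 11 of 12 had the higher fold in the FB23-2 list, with a median difference of 0.12, and the one exception was the 3' end peak of ITGB5 (0.97 in the FB23-2 list and 1.30 in the DMSO list). The 12 pairs come from 5 genes, and 4 of them use a DMSO peak that another pair uses too. Of the laminin pairs 6 of 18 were higher in the FB23-2 list, with a median of -0.10, of the collagen pairs 27 of 57 (median -0.02) and of the integrin alpha pairs 9 of 16 (median 0.10). By class, 19 of 29 coding-exon pairs and 26 of 60 3' UTR pairs had the higher fold in the FB23-2 list. Shares by class over all pairs were not computed, so these counts cannot be read as particular to the members. Several of the exon pairs come from COL1A1 and COL3A1.

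The central 95% of all pairs ran from -1.10 to 0.91. Only 4 member pairs lay outside it: the COL1A1 exon pairs that start at chr17:50188517 (0.91) and chr17:50194378 (0.99), ITGB2 (2.27) and COL1A2 (-3.66). The other COL1A1 exon pairs, with 0.31 and 0.28, lay inside it. Each FB23-2 peak has a single partner here, so the COL3A1 DMSO peak of 3.11 inside the FB23-2 peak of 1.72 formed no pair. The borders of the peak differed between the lists in each of the 4 pairs outside, as in all but 5 of the 103 member pairs.

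**Figure D3:**
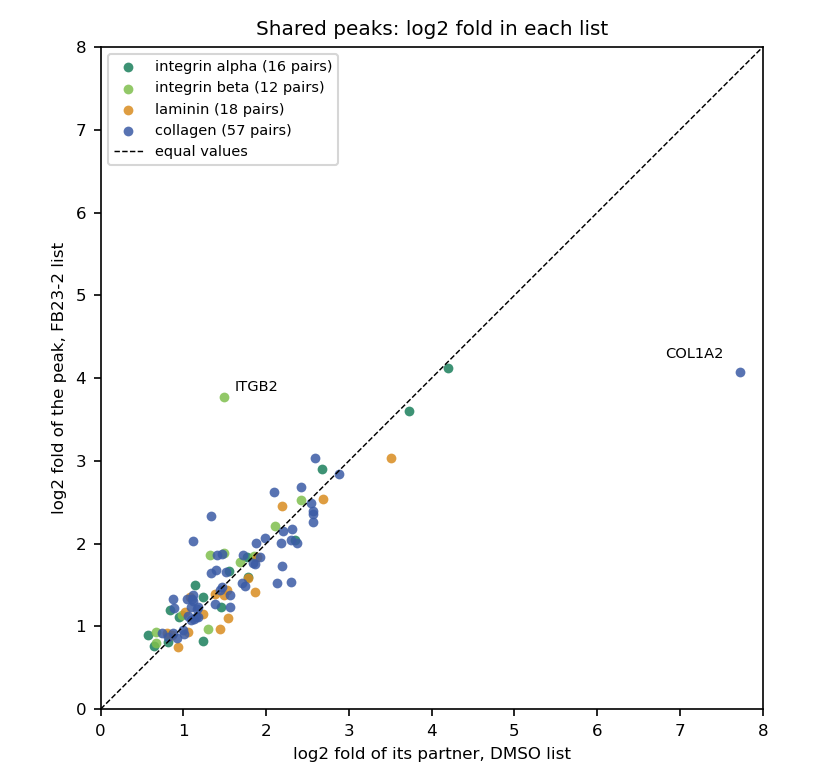
The log2 fold of each shared member peak in the FB23-2 list (vertical axis) against its DMSO partner (horizontal axis), coloured by family, with the line of equal folds. Most of the 103 pairs lie near the line, with ITGB2 (3.77 in the FB23-2 list, 1.49 in the DMSO list) far above it and COL1A2 (4.07 and 7.73) far below.

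Coding exons held a larger share of the members' peaks than of all peaks, in both lists alike. Coding-exon peaks were 42 of 130 (32.3%, exact interval 24.4 to 41.1) in the FB23-2 list and 47 of 147 (32.0%, 24.5 to 40.2) in the DMSO list, where they were 12.8% and 12.9% of all peaks. Collagens had 40.5% in the FB23-2 list and 42.5% in the DMSO list, and laminins 40.9% and 33.3%. Integrins did not share this: alpha subunits had 10% in the FB23-2 list and 4.35% in the DMSO list, and beta subunits 7.14% and 7.69%.

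3' UTR peaks were 52.3% of the members' peaks in the FB23-2 list and 51.0% in the DMSO list, where they were 57.3% of all peaks in each. 5' UTR peaks were 9.23% in the FB23-2 list and 6.12% in the DMSO list, against 12.2% and 11.7% of all peaks. When each gene was counted by its most significant peak, that peak lay in the 3' UTR in 35 of 43 members (81.4%) in the FB23-2 list and in 34 of 40 (85%) in the DMSO list, beside 63.6% and 64.5% of all genes. Classes other than UTR, coding exon and intron held 13.1% of all FB23-2 and 13.3% of all DMSO peaks, but 0% of member peaks. Such peaks and their genes are in the base of the shares over all peaks and all genes, so the bases are unlike. The class is the authors' and does not always mean the end of the gene: 8 of 68 FB23-2 and 12 of 75 DMSO member peaks classed as 3' UTR lay more than 10 kb from the listed 3' end (11.8% and 16%), near the 13.8% and 14% of all peaks so classed. These came from ITGA1, COL27A1, COL4A1 and COL4A2.

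A peak within 100 bases of the listed 3' end was present in 28 of 43 members (65.1%) in the FB23-2 list and in 31 of 40 (77.5%) in the DMSO list, where 62.4% and 64.3% of all genes had one. At the 5' end the members had fewer: 4 of 43 (9.30%) in the FB23-2 list and 4 of 40 (10%) in the DMSO list, where 23.4% and 22.4% of all genes had one. The median log2 fold of member peaks was 1.42 in the FB23-2 list and 1.30 in the DMSO list, beside 1.42 and 1.39 for all peaks. A fold of 4 or more was reached by 24.6% of FB23-2 and 19.7% of DMSO member peaks, beside 30.4% and 29.2% of all peaks. List-only member peaks had median log2 folds of 1.27 in the FB23-2 list and 1.09 in the DMSO list, and shared ones 1.48 and 1.45. Over all peaks the medians were 1.10 and 1.03 for list-only and 1.52 and 1.53 for shared peaks. For the integrin beta subunits the list-only medians were 2.26 in the FB23-2 list and 1.90 in the DMSO list, and the shared ones 1.81 and 1.41. These list-only medians rest on 2 FB23-2-only peaks (ITGB1 3.60 and ITGB8 0.93) and 3 DMSO-only peaks. No trend of the family can be read from so few.

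**Figure D4:**
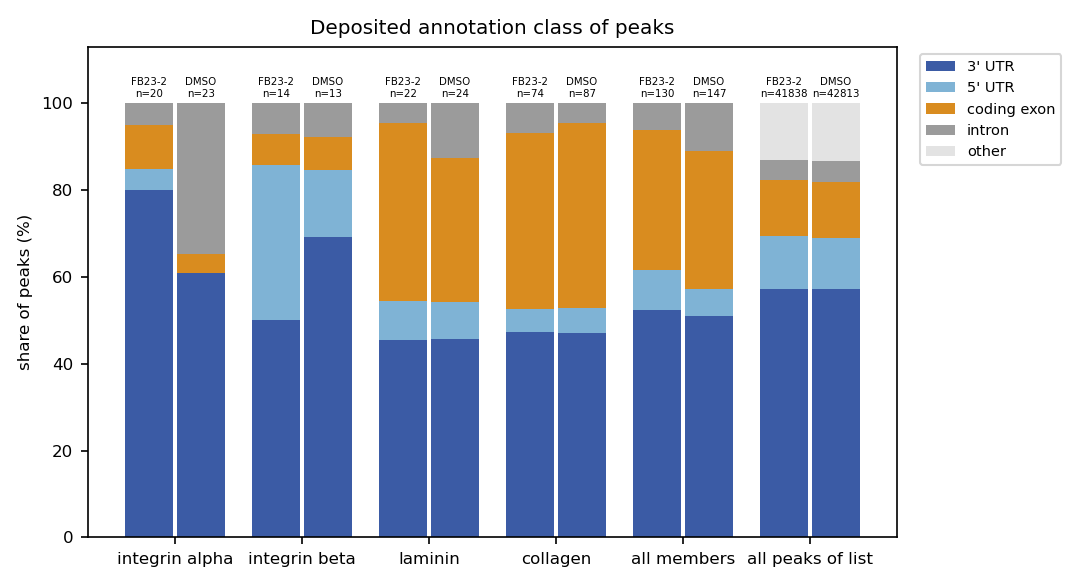
Share of peaks (percent) in each annotation class for the 4 families, all members and all peaks, with the FB23-2 list left of the DMSO list and the number of peaks above each bar. Coding exons take 40.5% and 42.5% of collagen peaks but 12.8% and 12.9% of all peaks.

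The peaks that reach a gene's start were looked at in the RefSeq gene-start windows (GRCh38.p14, 250 bases before to 50 after the start), of which 30 of the 44 members had at least 1. The following stretches are shown because they are the part of a window under a member's peak that holds GGAC, the core of the m6A motif, given in capitals on the transcript strand and read 5' to 3'.
COL4A5: aaagtttgcaagtctGGACagaagg
COL5A1: cgcggctggcgcaGGACctcactcgagcgg
ITGB1: aattttctggattGGACtgatcagttcagt
LAMB2: gctgtcggagGGACcgctGGACagacct
The COL4A5 stretch (chrX:108439863-108439887, plus strand) is the first part of the FB23-2-only peak of log2 fold 1.23. The COL5A1 stretch (chr9:134641821-134641850, plus strand) lies under the shared 5' UTR peak of both lists. The ITGB1 stretch (chr10:32935515-32935544, minus strand) lies under the DMSO peak of 0.67, and the FB23-2 peak of 0.80 stops at its border. The LAMB2 stretch (chr3:49133001-49133028, minus strand) holds the motif at 2 places under the DMSO peak of 1.54, while the FB23-2 peak of 1.10 reaches only 3 bases into the window. Windows of COL15A1 and ITGB5 were also under peaks of both lists and held 0 GGAC in the covered bases. GGAC was searched on the transcript strand, where 66.3% of all 35116 windows of 300 bases hold it and 18.9% do in their first 50 transcribed bases; on either strand 87.4% of windows do. A match is a stretch of letters and does not place a methylated base.

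Several member peaks overlap a peak that the lists assign to a gene on the opposite strand, beside the ITGB2 case above. These were ITGA6 with AC078883, ITGA7 with METTL7B, ITGB4 with GALK1, LAMB1 with DLD, COL9A3 with TCFL5, COL15A1 with AL136084 and COL18A1 with SLC19A1 in both lists, and LAMA5 with ADRM1 in the DMSO list. All of the member peaks concerned were shared ones, and without knowing the strandedness of the libraries the genes of each set cannot be told apart there.

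Other genes of adhesion and matrix were taken from 5 lists, of which 122 of 145 genes had a peak. In these lists, 52 of 349 FB23-2 peaks were FB23-2-only (14.9%) and 86 of 380 DMSO peaks were DMSO-only (22.6%), beside 17.3% and 20.1% of all peaks. With equal numbers of top peaks per list these counts were 41 FB23-2-only and 49 DMSO-only. Of the integrin adhesion complex, the proteins that tie integrins to actin, 35 of 38 genes had a peak, with 16 of 117 FB23-2-only and 20 of 120 DMSO-only. ILK, the integrin-linked kinase, had a single, DMSO-only 3' UTR peak at chr11:6610691-6610865 (1.10). Its binding partner LIMS1 had an FB23-2-only 3' UTR peak of 1.54, and the docking protein NEDD9 one of 3.99 at chr6:11200502-11200876. The actin crosslinker ACTN1 had 0 FB23-2-only peaks of 4 and 4 DMSO-only peaks of 7.

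Of the enzymes and chaperones that modify and secrete collagen, 26 of 31 had a peak, with 17 of 79 FB23-2-only and 21 of 80 DMSO-only. LOX, the lysyl oxidase that crosslinks collagen, had 2 FB23-2-only peaks of 3 and 4 DMSO-only peaks of 5. Its relative LOXL4 had a single, FB23-2-only 3' UTR peak at chr10:98247890-98248314 (2.52). The lysyl hydroxylase PLOD3 had 1 FB23-2-only exon peak of 4 (1.22), and the collagen chaperone SERPINH1 had 2 DMSO-only peaks of 6, the more significant with 1.25.

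Other basement-membrane and matrix proteins had the fewest FB23-2-only peaks, 5 of 57, and 23 of 77 DMSO-only, on 22 of 29 genes. FBN1, the microfibril protein fibrillin, had 1 FB23-2-only peak of 8 and gave 6 of those DMSO-only peaks, out of its 12. THBS1, a matricellular protein, had 0 FB23-2-only peaks of 3 and 2 DMSO-only peaks of 7, and the proteoglycan HSPG2 1 of 3. FRAS1, a basement-membrane protein, had 1 peak in each list and neither was shared, the FB23-2 one being at chr4:78070605-78071629 (3.89).

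Other matrix receptors (15 of 18 genes) had 6 of 36 FB23-2-only and 8 of 36 DMSO-only peaks. The tetraspanin CD151, which binds laminin-receptor integrins, had an FB23-2-only 5' UTR peak of 1.18. CD47, a thrombospondin receptor, and DDR1, a collagen receptor, each had 1 FB23-2-only peak of 2 and 2 DMSO-only peaks of 3. The tetraspanin CD81 had 0 FB23-2-only peaks of 2 and 1 DMSO-only peak of 3 (1.86). Proteases and their inhibitors (24 of 29 genes) had 8 of 60 FB23-2-only and 14 of 67 DMSO-only peaks. TIMP1, a metalloproteinase inhibitor, had a single, DMSO-only 3' UTR peak at chrX:47586594-47586789 (1.26), and TIMP3, of the same family, 3 DMSO-only peaks of 7. The membrane proteases ADAM9 and ADAM17 had 1 FB23-2-only peak each (1.09 and 0.79).

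Peaks on markers of cell types were listed because collagens I and III and ITGB2 are themselves markers of other cells. Epithelial markers had a peak in 5 of 5 genes, with 5 of these in the FB23-2 list and 4 in the DMSO list. Hepatocyte markers had one in 2 of 9, FGA and FGB, both in the FB23-2 list alone, and hepatoma markers in 0 of 2. Fibroblast and stellate cell markers had one in 9 of 12, COL1A1, COL1A2 and COL3A1 included, leukocyte markers in 4 of 7, ITGB2 included, and endothelial markers in 1 of 6. A peak is not an expression level, and the part of other cells in these values was not tested.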

How the data were processed

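MeRIP-seq was done in MHCC97H cells after FB23-2 or DMSO, with 3 samples each. Per the submitters' processing notes HISAT2, Cuffdiff and the GRCh38 build were used; the peak caller is not given in the sources used here. There was 1 deposited peak list per treatment, with position, strand, class and gene of each peak, a log2 fold change and p-values with adjusted p-values. Per the file headers the log2 column names no denominator. Deposited starts count from 0 and are printed 1-based. A span includes introns.

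All peaks of both lists were paired with bedtools 2.31.1 and only the members' peaks are printed. Shares carry exact (Clopper-Pearson) 95% intervals, and medians order-statistic intervals. Both treat peaks of 1 gene as independent. No test between treatments was possible. The pairing step was tested on made-up peaks, which were DMSO peaks with some removed and the rest shifted slightly. Scripts ran under Python 3.11.15 with scipy 1.17.1 for intervals.

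The members and gene lists were chosen with earlier results of these data known. Described with their peaks were the members in 1 list only, the 3 per family with the most significant peak, the 5 per list with the most list-only peaks, and the subunit sets of ITGA6, ITGAV, LAMA5, LAMA3 and COL4A1. Of each adhesion and matrix list up to 4 genes with the most significant list-only peak were named. The other members are given in brief, and 1 member is counted but not reported here. Alternatives were stricter peak thresholds, other overlap rules, strand ignored, merged peaks, equal numbers of top peaks, each gene counted once and mutual longest overlaps.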

Additional observations from a re-analysis of the deposited data

How the results depend on the processing

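Of the values recomputed under each alternative, 35 stayed within their interval or within 1.5 times the count, and 18 moved. With an adjusted p under 0.001 the shared share of DMSO member peaks was 78.2%. At a fold of at least 4, fewer peaks remain by construction: 27 FB23-2 and 24 DMSO members had a peak. The 5 gene lists then held 15 FB23-2-only and 23 DMSO-only peaks, and 79.3% of DMSO member peaks were in the 3' UTR. At that fold 2 members (COL25A1 and COL9A2) were in the DMSO list alone and 5 (COL27A1, COL4A6, COL6A3, ITGB1 and ITGB2) in the FB23-2 list alone. Of these, COL9A2, COL27A1, ITGB1 and ITGB2 have weaker peaks in the other list. The median FB23-2 minus DMSO difference was -0.13. When each peak of a pair had to cover the other, the shared share was 58.5% in the FB23-2 list and 51.7% in the DMSO list, and the gene lists held 111 FB23-2-only and 142 DMSO-only peaks. With the 33470 most significant peaks of each list, 79.8% of DMSO member peaks were shared and 59.6% lay in the 3' UTR. The gene lists then held 41 FB23-2-only and 49 DMSO-only peaks, and 2 members were in the DMSO list alone and 3 in the FB23-2 list alone. With each gene counted once, 81.4% of FB23-2 and 85% of DMSO members had their peak in the 3' UTR. The cause of these moves was not tested beyond what each setting removes. No paired analysis was possible because neither list has values for single samples, and for that reason no replicate could be left out. Read depth is unknown, so what depth limits cannot be given.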
